A study of Rattus norvegicus with 15 samples.

Results

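MicroRNA (miRNA) levels in rat sciatic nerve on day 14 after injury were set against those on day 7, to ask which miRNAs still changed in the second week after the lesion. The 3 arrays of day 14 and the 3 arrays of day 7 were taken by their labels from a series of 15, which also holds 3 arrays each of days 1 and 4 and of uninjured nerve (day 0). Each array read the total RNA of 1 sample of Rattus norvegicus sciatic nerve, from adult males of a strain that is not given. The descriptions of the lesion conflict: one text names a resection and proximal nerve tissue, another a crush and the damaged section, so that the lesion is called injury throughout. Day 14 animals and day 7 animals carried the same injury and no other treatment, and they differed in the time allowed after it. The labels do not say whether the replicates of a group came from separate animals or from pools, so the p-values measure only the spread between these samples. Of the 350 rat miRNAs on the array, 219 were detected on all 3 arrays of day 14 or on all 3 arrays of day 7 and were tested. All 219 were detected on the 3 day 7 arrays, and 170 of them on the 3 day 14 arrays.

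A miRNA is cut from a hairpin precursor and represses messenger RNAs that pair with its seed, bases 2 to 8 from the 5′ end. miRNAs that share a seed form a family and can share targets, and miRNAs that lie close together in the genome are often cut from one transcript. After a peripheral nerve lesion, Schwann cells leave their myelinating state and divide, blood-borne leukocytes enter the nerve and clear myelin debris, and axons then regrow and are wrapped again. In whole nerve, fewer cells of a type and less of a miRNA per cell cannot be told apart.

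The mature sequences of the families and single miRNAs that carry the results are given first, from RefSeq on the rat build GRCr8, with the seed in capitals. Each is the mature product of a miRNA gene of its own. The miR-181 family is shown because 3 of its 4 members passed the test as rises.
miR-181a (chr13:52037081-52037103, plus strand): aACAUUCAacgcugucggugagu
miR-181b (chr13:52037263-52037285, plus strand): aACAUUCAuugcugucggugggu
miR-181c (chr19:40888314-40888335, plus strand): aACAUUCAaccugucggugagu
miR-181d (chr19:40888484-40888506, plus strand): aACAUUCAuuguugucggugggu
The same miR-181a is also encoded at chr3:43025601-43025623 on the plus strand. The 5 miRNAs with the miR-15/16 seed are shown because they share it and 2 of them passed as rises.
miR-497 (chr10:55450172-55450193, plus strand): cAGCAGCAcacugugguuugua
miR-195 (chr10:55450509-55450529, plus strand): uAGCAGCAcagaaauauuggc
miR-16 (chr2:155555343-155555364, plus strand): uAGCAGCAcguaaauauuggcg
miR-15b (chr2:155555197-155555218, plus strand): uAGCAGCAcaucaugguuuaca
miR-322 (chrX:137726198-137726219, minus strand): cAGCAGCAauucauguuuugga
The miR-130 pair is shown because relatives with one seed moved in opposite directions.
miR-130a (chr3:90229240-90229261, minus strand): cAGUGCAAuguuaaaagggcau
miR-130b (chr11:97384430-97384451, plus strand): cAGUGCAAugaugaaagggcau
The following fell, and are shown because their values on every array are described.
miR-31 (chr5:108714906-108714927, minus strand): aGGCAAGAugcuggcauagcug
miR-21 (chr10:71902653-71902674, minus strand): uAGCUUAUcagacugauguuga
miR-221 (chrX:6023246-6023268, plus strand): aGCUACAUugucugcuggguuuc
miR-7a (chr17:6278710-6278732, plus strand): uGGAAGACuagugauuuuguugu
miR-137 (chr2:209165767-209165789, plus strand): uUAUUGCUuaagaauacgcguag
miR-30c-1* (chr5:139634467-139634488, minus strand): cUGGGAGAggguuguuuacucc
The same miR-7a is also encoded at chr1:142215818-142215840 on the plus strand.

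A level is given as the log2 of an array's signal for the miRNA after division by that array's 75th percentile, so that 0 marks the percentile, and values below a floor of -8.11 were set to it. One library stood apart. Day 14 replicate 3 was the only array on its slide, and 172 miRNAs were detected on it, against 239 and 220 on day 14 replicates 1 and 2 and 220 to 234 on the day 7 arrays. Its negative controls averaged an intensity of -8.54, against -1.03 to 1.19 on the other 14 arrays of the series, and 5.67% of its spots were marked as outliers. Because 41 of the 219 miRNAs were missed on that array alone among the 3 of day 14, results are given a second time within the slide that holds day 14 replicates 1 and 2 and all 3 day 7 arrays, where 227 miRNAs were tested. The day 14 arrays also varied more: the median SD between arrays over the tested miRNAs was 0.184 on day 14 and 0.0583 on day 7. The tissue label was checked against miR-338 and miR-204, which mark myelinating glia and Schwann cells. Both lay above the percentile, at mean levels of 3.35 and 0.87 on day 14 and 2.90 and 0.70 on day 7. The glial list they come from has 10 entries on the array, of which 5 were tested, so these levels do not verify the tissue label. Muscle miRNAs were also present, and their summed scaled signal differed between arrays: 2.23, 0.881 and 1.92 on day 14, and 0.270, 0.849 and 0.774 on day 7.

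Between day 7 and day 14 a limited set of miRNAs changed, mostly by less than 2-fold. Among those lower on day 14 were miR-31, miR-21, miR-221, miR-18a and miR-130b, each of which had a higher mean on day 7 than on day 0, and the neuronal miR-7a and miR-137. Of these, miR-130b and miR-137 were each missed on 1 day 14 array and were tested through their detection on day 7. Members of the miR-181 family, the miR-497 and miR-195 pair and miR-130a were higher. In limma's fit of all 15 arrays, 37 of 219 miRNAs passed an adjusted p of 0.05 (16.9%), 14 higher on day 14 (6.39%) and 23 lower (10.5%). The rises were 1.26-fold to 1.78-fold with a median of 1.35-fold, and the falls 1.24-fold to 3.21-fold with a median of 1.60-fold. All 219 were detected on the 3 day 7 arrays, so miRNAs missed on day 14 entered only through day 7. When the 170 detected on all 6 arrays were tested alone, 13 rose and 11 fell. All 3 day 14 arrays lay beyond all 3 day 7 arrays for each of the 37, and for 82 of the 219 tested (37.4%), 36 of them higher (16.4%) and 46 lower (21.0%). Within the shared slide, 48 of 227 passed (21.1%), 9 higher (3.96%) and 39 lower (17.2%), and the arrays did not overlap for 129 (56.8%), 33 higher (14.5%) and 96 lower (42.3%). The median change over those 227 was -0.10, and the lean to falls there depended on the scaling. The slide fit shares 1 estimate of the spread between both groups. The median SD over the 219 miRNAs was 0.180 between day 14 replicates 1 and 2, against 0.0583 on day 7. With only 2 arrays in the more variable group, its p-values can be too small. It also reuses arrays of the larger fit, so its passes are not independent support. Called in both fits were 30 miRNAs (13.7%), 8 as rises and 22 as falls. The 6 rises that did not pass within the slide were miR-146a, miR-195, miR-20b-5p, miR-23b, miR-30e and miR-674-5p, and the fall that did not was miR-339-3p.

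The number of calls was lowest when a day 7 array was left out. Leaving out an array also changes the shared estimate of the spread, the detection filter and the scaling set, and the reason was not tested. Leaving out day 7 replicate 1, 2 or 3 left 14, 11 or 22 calls, and leaving out day 14 replicate 1, 2 or 3 left 49, 30 or 29. Within the slide, leaving out day 7 replicate 1, 2 or 3 left 6, 8 or 3 calls, and leaving out day 14 replicate 1 or 2 left 66 or 27. The split also moved with the scaling between arrays, since the median change over the tested miRNAs was -0.02 in the main setting, 0.26 without scaling and -0.16 with a scaling set that did not depend on day 14 replicate 3. The rises and falls numbered 14 and 23 in the main setting, 72 and 10 without scaling, 3 and 43 with that scaling set, 34 and 32 with a 75th percentile taken over all the miRNAs, 20 and 21 with quantile normalisation, and 10 and 11 in the authors' deposited value table. Of the 170 miRNAs detected on all 6 arrays, 13 rose and 11 fell when these alone were tested. Under all 6 of these scalings, 2 miRNAs were called higher, miR-181c and miR-497, and 3 lower, miR-31, miR-7a and miR-30c-1*. Within the slide the split also moved: rises and falls numbered 9 and 39 in the main setting. They numbered 15 and 20 with a 75th percentile over all miRNAs, 7 and 8 with quantile normalisation and 15 and 4 without scaling. With the software's total signal they numbered 3 and 22, and the authors' deposited values gave 5 and 5. Small falls called only within the slide are read against its median change of -0.10.

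**Figure D1:**
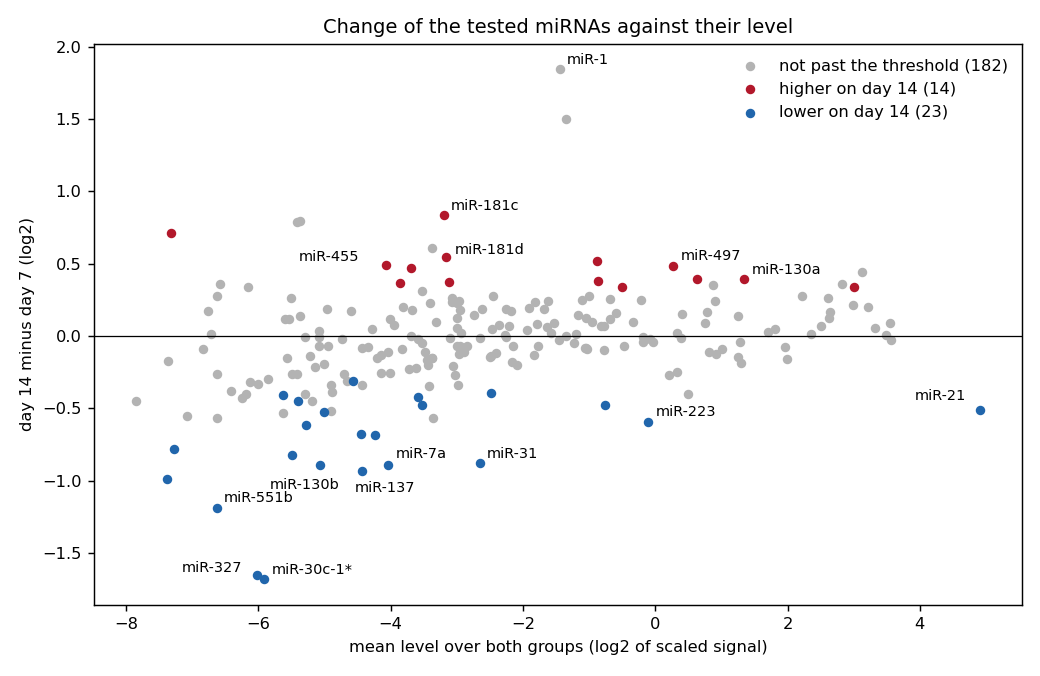
Log2 change (day 14 minus day 7, vertical axis) of the 219 tested miRNAs against their mean level over both groups (log2 of scaled signal, horizontal axis), each point 1 miRNA, coloured by the limma call. Most falls past 0.7 lie among dim miRNAs on the left, while miR-31 and miR-21 fell at higher levels and miR-1, although 1.84 higher, did not pass.

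miR-31, which represses integrin subunits and is induced in several kinds of wounded tissue, was lower on day 14. Its level was -2.90, -3.01 and -3.37 on the day 14 arrays, against -2.30, -2.15 and -2.19 on the day 7 arrays. All 3 day 14 values lay below all day 7 values. The change was -0.88 ± 0.14 (SE, n = 3 arrays per group), a level 1.84-fold lower on day 14 (limma adjusted p = 0.00228), and -0.83 within the slide (adjusted p = 0.012). It passed in each of the 25 settings tried, which vary the scaling, background, detection filter, model and arrays, and relative to the median of all tested miRNAs it was between -0.92 and -0.86 under the 6 scalings. Scalings that divide each array by a constant give nearly the same relative value by construction. Only quantile normalisation and the deposited table could move it much. On the day 0 arrays miR-31 was not detected.

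miR-21, a miRNA that inflammation induces in many tissues, was the brightest miRNA on day 7. Its level was 4.61, 4.51 and 4.84 on day 14, against 5.15, 5.23 and 5.13 on day 7, with no overlap. It fell by 0.51 on the log2 scale (SE 0.12, 1.43-fold lower, limma adjusted p = 0.0121), and the change within the slide was -0.70. Quantile normalisation and the deposited table gave a change of 0.00, because the brightest miRNA of every array there receives the same value, and without scaling the change was -0.23 (adjusted p = 0.279). Without day 7 replicate 2 it was -0.48, with an adjusted p of 0.0606. miR-21*, the other arm of the same hairpin, was dim: it was detected on 1 of 3 day 14 arrays and all 3 day 7 arrays, and fell by 0.99 (SE 0.15, limma adjusted p = 0.00154). Its 4 probes gave changes between -1.49 and 0.00, with the smallest at the floor. The change was 0 with the floor raised 4 times and -0.013 with normexp background correction, which models background beneath the spot signal and raises dim values, and the call also ended with total gene signal (-0.45) and in the deposited table (-1.09).

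miR-221 and miR-222 share a seed and a locus on chromosome X, and both repress the cell cycle inhibitor p27. miR-221 was at -1.21, -0.80 and -0.97 on day 14, against -0.49, -0.53 and -0.53 on day 7, and fell by 0.47 (SE 0.10, limma adjusted p = 0.00704), with -0.58 within the slide. Only the setting without scaling ended that call (-0.20, adjusted p = 0.136). miR-222 stood at -3.80, -3.12 and -4.01 on day 14, against -3.06, -3.08 and -3.08 on day 7. All 3 day 14 values were lower here too, but they were spread widely, and the change of -0.57 ± 0.19 did not pass (limma adjusted p = 0.0508). It passed in 8 of 25 settings, among them quantile normalisation (-0.57, adjusted p = 0.0134) and the fit without day 14 replicate 2 (-0.83, adjusted p = 0.0022). The difference between both miRNAs within an array averaged 2.65 on day 14 and 2.55 on day 7 (exact permutation p = 0.7, two-sided).

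miR-18a, a member of the MYC-driven miR-17-92 cluster, was at -4.58, -4.49 and -4.68 on day 14, against -4.02, -3.83 and -3.85 on day 7. It fell by 0.68 (SE 0.16, limma adjusted p = 0.0121) and by 0.72 within the slide. It did not pass with quantile normalisation (-0.53), without scaling (-0.40), with the software's total signal (-0.84), in the deposited table (-0.68) or without day 7 replicate 2 (-0.65). Among the 11 tested members of that cluster and its paralogs, miR-20b-5p rose, miR-18a fell, the median change was -0.0026 and the other 9 did not pass. miR-19a, from the same transcript, was -0.34 ± 0.15 (adjusted p = 0.133) and passed within the slide at -0.49 (adjusted p = 0.0133).

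miR-223, a miRNA of neutrophils and other myeloid cells, was at -0.40, -0.66 and -0.14 on day 14, against 0.15, 0.26 and 0.17 on day 7. The day 14 arrays were all lower, and the fall was 1.51-fold (log2 -0.59 ± 0.16, limma adjusted p = 0.0261), with -0.82 within the slide, and it was not called without scaling (-0.31). It lost its call when day 14 replicate 2 (-0.46) or any 1 day 7 array (-0.56 to -0.61) was left out. The other leukocyte miRNAs did not pass: miR-142-3p, made by blood-derived cells at large, changed by -0.27 (adjusted p = 0.179), and miR-150, of mature lymphocytes, by 0.04 (adjusted p = 0.834). The leukocyte list thus held 0 rises and 1 fall of 5 tested, with a median of -0.11, against 14 rises and 23 falls of 219 and a median of -0.02 over all tested. Its median was 0.17 without scaling.

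Of the p53-induced miR-34 family, miR-34c passed, at -5.40, -5.08 and -5.31 on day 14 and -4.74, -4.66 and -4.83 on day 7. It fell by 0.52 (SE 0.15, limma adjusted p = 0.0284) but was missed on 1 day 14 array, and the call ended without day 14 replicate 1 or without any 1 day 7 array. The miR-34c call also ended with quantile normalisation (-0.31), without scaling (-0.24), with total gene signal (-1.44) and with normexp (-0.21). The deposited table (-1.71), no detection filter, slide as a fixed block (-0.50) and negative control mean subtraction (-0.40) ended it as well. miR-34b changed by -0.34 ± 0.15 and passed only within the slide (-0.49, adjusted p = 0.0371). miR-132, which CREB induces in active neurons, changed by -0.25 ± 0.11 (adjusted p = 0.133) and passed within the slide at -0.33 (adjusted p = 0.0436). miR-212, encoded beside miR-132, was at -4.26, -4.06 and -2.83 on day 14 and -3.90, -3.84 and -4.02 on day 7. Its sign turned with 1 array: 0.20 in the main fit, and -0.34 within the slide without day 14 replicate 3 (adjusted p = 0.0305).

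**Figure D2:**
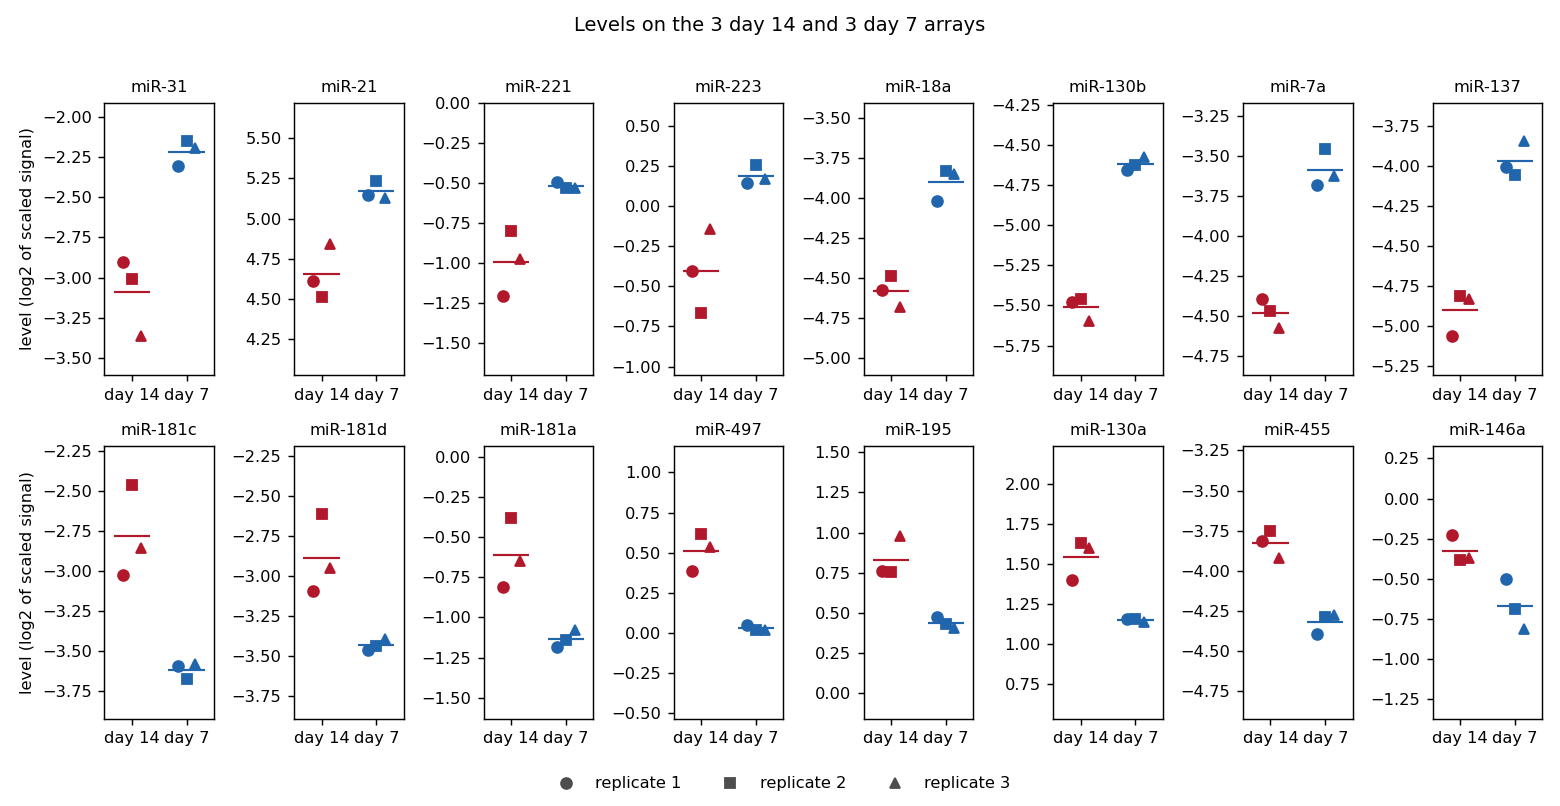
Level (log2 of scaled signal, vertical axes of equal span) of 16 miRNAs on the 3 day 14 arrays (left, red) and the 3 day 7 arrays (right, blue), with a bar at each mean and a symbol per replicate number. The upper row holds miRNAs that fell and the lower row miRNAs that rose, and in no panel do the groups overlap.

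The neuron list held 9 tested miRNAs, of which 3 fell and none rose, with a median change of -0.23 that became 0.05 without scaling. Over all tested, 23 of 219 fell (10.5%) and the median was -0.02. Of the 6 neuronal miRNAs detected on all 6 arrays, 1 fell, and their median was -0.10. miR-7a, a neuronal and islet miRNA that represses alpha-synuclein, had the smallest p-value of all miRNAs tested. Its level was -4.39, -4.47 and -4.58 on day 14, against -3.68, -3.46 and -3.62 on day 7. The groups lay far apart relative to their spread, and the fall was 1.85-fold (log2 -0.89 ± 0.10, limma adjusted p = 6.89e-05), with -0.94 within the slide. The call held in all 25 settings. The other arm, miR-7a*, was dim and changed by -0.26 (adjusted p = 0.436), passing within the slide at -0.47 (adjusted p = 0.0176).

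miR-137, a brain miRNA that restrains neuronal maturation, was at -5.06, -4.81 and -4.83 on day 14, against -4.01, -4.06 and -3.85 on day 7. All day 14 values were lower, and 1 day 14 array missed detection. It fell by 0.93 (SE 0.16, 1.91-fold, limma adjusted p = 0.00234) and by 1.06 within the slide, and lost its call in the deposited table (-2.21, adjusted p = 0.087). miR-129* fell less, by 0.45 (SE 0.14, adjusted p = 0.0442), and its 2 probes gave -1.14 and -0.19. That call ended when any 1 array other than day 14 replicate 2 was left out. It also ended with quantile normalisation (-0.31), without scaling (-0.17), with total gene signal (-1.21) and with normexp (-0.17). The deposited table (-1.53), no detection filter, slide as a fixed block (-0.37) and negative control mean subtraction (-0.30) ended it as well. The remaining neuronal miRNAs did not pass, among them miR-124, which is restricted to neurons (-0.23, adjusted p = 0.36), miR-218 of motor neurons (-0.08, adjusted p = 0.704) and miR-9 of neural progenitors (0.07, adjusted p = 0.749).

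The largest falls were of dim miRNAs. miR-30c-1*, the minor arm of a miR-30c hairpin, was at -6.48, -6.53 and -7.22 on day 14, against -4.87, -5.23 and -5.10 on day 7. It was 3.21-fold lower on day 14 (log2 -1.68 ± 0.28, limma adjusted p = 0.00233) and -1.54 within the slide. All 4 of its probes were lower, by -2.22 to -1.07, and the call ended only with normexp background correction (-0.23, adjusted p = 0.0577). miR-30c, the main arm, changed by 0.25 ± 0.11 (adjusted p = 0.153).

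miR-327 was at -6.33, -6.70 and -7.48 on day 14, against -4.92, -5.38 and -5.25 on day 7, 3.15-fold lower (log2 -1.65 ± 0.49, limma adjusted p = 0.034). It was detected on 1 day 14 array, and the call ended when any 1 array other than day 14 replicate 1 was left out. The miR-327 call also ended with quantile normalisation (-1.38), with normexp (-0.18) and in the deposited table (-2.65). It was lost as well with no detection filter, slide as a fixed block (-1.33) or negative control mean subtraction (-1.24). miR-551b was at -7.11, -6.44 and -8.11 on day 14, against -6.01, -6.08 and -6.01 on day 7 (-1.19 ± 0.29, adjusted p = 0.0164). Its lowest value was the floor itself, and with a floor 4 times higher the change was -0.08. The call also ended without day 7 replicate 1 or 2, with normexp (-0.02), with total gene signal (-0.94) and in the deposited table (-1.68). It was lost as well with no detection filter and in a fit of the 6 arrays alone. miR-339-3p, detected on 1 day 14 array as well, changed by -0.78 ± 0.25 (adjusted p = 0.0489) and not past the threshold within the slide (-1.45, adjusted p = 0.0977), nor without day 14 replicate 1 or 2 or day 7 replicate 1 or 2. It was called in 6 of 24 settings, and its change was 0 with the floor raised 4 times and -0.00143 with normexp. In all, 13 of the 23 falls were of miRNAs missed on at least 1 day 14 array. Ranked by mean level over all arrays, the 73 dimmest miRNAs held 16 falls and 3 rises, with a median change of -0.26. All of these were detected on the 3 day 7 arrays, but 25 of the 73 on all 3 day 14 arrays. The detection filter thus admitted dim miRNAs through day 7, and this lean to falls is not read as a result about them. The 73 brightest held 3 falls and 7 rises, with a median change of 0.07.

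The miRNAs of Dlk1-Dio3, an imprinted region that expresses a large miRNA cluster from the maternal copy, made up 34 of those tested. Of these, 0 rose and 6 fell, against 14 and 23 of 219 over all tested, and 27 had a negative change, against 119 of the 219. The list's median was -0.14, against -0.02 over all tested, and without scaling it was 0.14, with 2 rises and 2 falls. Of the 22 members detected on all 6 arrays, 2 fell and 0 rose, and their median was -0.10. Over all 170 miRNAs so detected, 11 fell and 13 rose, with a median of 0.02. The falls were those of miR-543* (-0.82 ± 0.24), miR-541 (-0.67 ± 0.15), miR-409-3p (-0.62 ± 0.15), miR-376b-3p (-0.48 ± 0.13), miR-495 (-0.42 ± 0.11) and miR-382* (-0.40 ± 0.13). miR-409-3p, miR-495 and miR-382* were named after their values were seen, and were called in 17 of 24, 22 of 25 and 9 of 24 settings. miR-543* was not called when any 1 day 7 array was left out. The miR-543* call also ended with total gene signal (-0.91), with normexp (-0.16) and in the deposited table (-1.12). No detection filter and a fit of the 6 arrays alone ended it as well. Of the 6 falls, only miR-376b-3p and miR-495 were detected on all 3 day 14 arrays.

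miR-376b-3p, a fall detected on all 3 day 14 arrays, was at -3.74, -3.68 and -3.87 on day 14, against -3.33, -3.20 and -3.32 on day 7 (limma adjusted p = 0.0221). Its values did not overlap, but the call ended when any 1 day 7 array was left out. miR-541 was at -4.64, -4.65 and -5.06 on day 14, against -4.15, -4.03 and -4.14 on day 7 (adjusted p = 0.0121), and was not called without day 7 replicate 2. The miR-541 call also ended without scaling (-0.39), with total gene signal (-1.51) and in the deposited table (-1.73). Bright members of the region did not pass, among them miR-127, which is antisense to the Rtl1 gene (-0.08, adjusted p = 0.669), and miR-434 (0.01, adjusted p = 0.948).

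A pair of falls lay outside these lists' main themes. miR-126*, cut from an intron of the endothelial gene Egfl7, was at -2.63, -2.73 and -2.67 on day 14, against -2.26, -2.22 and -2.37 on day 7. It fell by 0.39 (SE 0.10, limma adjusted p = 0.0164), a change that was -0.11 without scaling and that did not pass without day 7 replicate 1 or 2. The other arm, miR-126, changed by -0.19 ± 0.10 with overlapping arrays (adjusted p = 0.231) and passed within the slide at -0.40 (adjusted p = 0.0305). miR-674-3p, named after its values were seen, changed by -0.31 ± 0.10 (adjusted p = 0.0489), was called in 11 of 25 settings, and had probes between -1.18 and -0.18.

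The miR-181 family, known from lymphocyte and brain biology, gave the largest rise among the miRNAs that passed. miR-181c was at -3.02, -2.47 and -2.85 on day 14, against -3.59, -3.67 and -3.58 on day 7. The day 14 arrays were all higher, by 1.78-fold on average (log2 0.84 ± 0.15, limma adjusted p = 0.00358), and the change within the slide was 0.78 (adjusted p = 0.0176). The call held in all 25 settings, and relative to the median of all tested miRNAs the change was 0.85 to 1.11 under the 6 scalings. As for miR-31, only quantile normalisation and the deposited table could move this relative value much.

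miR-181d lies 148 bases from miR-181c on chromosome 19, and it was at -3.09, -2.62 and -2.95 on day 14, against -3.47, -3.44 and -3.39 on day 7. It rose by 0.55 ± 0.13 (limma adjusted p = 0.0164). miR-181a was at -0.81, -0.38 and -0.65 on day 14, against -1.18, -1.14 and -1.07 on day 7, and rose by 0.52 ± 0.13 (adjusted p = 0.018). For both, day 14 replicate 2 was the highest array and replicate 1 the lowest, and neither passed without day 7 replicate 1 or 2 or with the scaling set that leaves out day 14 replicate 3 (0.40 and 0.37). Replicate 1 also lay below replicate 2 over all tested miRNAs, by a median log2 difference of -0.23. miR-181a was also not called without day 14 replicate 2. miR-181b changed by 0.26 ± 0.12 and did not pass (adjusted p = 0.151), although its arrays did not overlap. The family thus had 3 rises and 0 falls of 4 tested, with a median of 0.53 that stayed between 0.39 and 0.81 under the scalings, against 6.39% of all tested miRNAs called higher. With the scaling set that leaves out day 14 replicate 3, or without day 7 replicate 1 or 2, 1 of the 4 was called, and without day 14 replicate 2 it was 2. Probes of relatives with similar sequence can bind one another's miRNA, so the members are not independent measurements. The change of miR-181c exceeded that of miR-181b by 0.57 within arrays, with an exact permutation p of 0.1, the smallest that 3 arrays against 3 allow.

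Of the 5 members with the miR-15/16 seed, which repress cyclins and the survival gene Bcl2, 2 passed the test. miR-497 and miR-195 are those 2, and they lie 315 bases apart on chromosome 10. miR-497 was at 0.39, 0.61 and 0.54 on day 14, against 0.05, 0.02 and 0.02 on day 7. It rose 1.40-fold (log2 0.49 ± 0.09, limma adjusted p = 0.00466), and by 0.38 within the slide (adjusted p = 0.0165), with a call in all 25 settings. miR-195 was at 0.76, 0.75 and 0.98 on day 14, against 0.48, 0.43 and 0.40 on day 7, and rose by 0.39 ± 0.10 (adjusted p = 0.0184). It was not called within the slide (0.23, adjusted p = 0.0949) or without day 14 replicate 3 or any 1 day 7 array.

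The pair on chromosome 2, which lies 124 bases apart, did not pass. miR-16 was between 2.97 and 3.21 on day 14, against 2.83, 2.91 and 2.89 on day 7, a change of 0.21 ± 0.10 (limma adjusted p = 0.179) that was -0.13 at its lowest under the 6 scalings. miR-15b changed by -0.12 ± 0.10 (adjusted p = 0.444) with overlapping arrays. miR-322 on chromosome X changed by -0.07 ± 0.11 (adjusted p = 0.704). The list of miR-15b, miR-16, miR-195 and miR-497 had 2 rises and 0 falls, with a median of 0.30, where 14 of all 219 tested rose (6.39%). Within the slide it had 1 rise and a median of 0.15, and 1 rise and 1 fall with the scaling set that leaves out day 14 replicate 3. Its summed scaled signal was 12.6, 13.5 and 14.6 on day 14, against 11.4, 11.9 and 11.8 on day 7. That sum adds signals before the log2 step, and the larger part of it is miR-16, which did not pass.

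The miR-130 pair moved in opposite directions despite sharing a seed. miR-130a, which promotes angiogenesis in endothelial cells, was at 1.40, 1.63 and 1.60 on day 14, against 1.16, 1.16 and 1.14 on day 7. It rose by 0.39 ± 0.12 (limma adjusted p = 0.034) and by 0.27 within the slide (adjusted p = 0.0364). It lost the call when day 14 replicate 2 or 3 or any 1 day 7 array was left out. miR-130b was at -5.48, -5.46 and -5.60 on day 14, against -4.66, -4.63 and -4.57 on day 7, and fell by 0.89 (SE 0.17, adjusted p = 0.00466). It was detected on 2 of 3 day 14 arrays, and its change lay between -2.09 and -0.27 over the settings. That fall was as large within the slide (-0.94, adjusted p = 0.00633), and only the deposited table ended the call (-2.09, adjusted p = 0.107). The log2 value of miR-130a minus that of miR-130b within an array was 6.88, 7.09 and 7.20 on day 14 and 5.82, 5.79 and 5.71 on day 7. The levels of different probes cannot be ranked, so only the change in this measure is read. It was 1.29 and had an exact permutation p of 0.1, the smallest possible with 3 arrays against 3. miR-301a, a relative, changed by 0.24 ± 0.16 (adjusted p = 0.341).

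**Figure D3:**
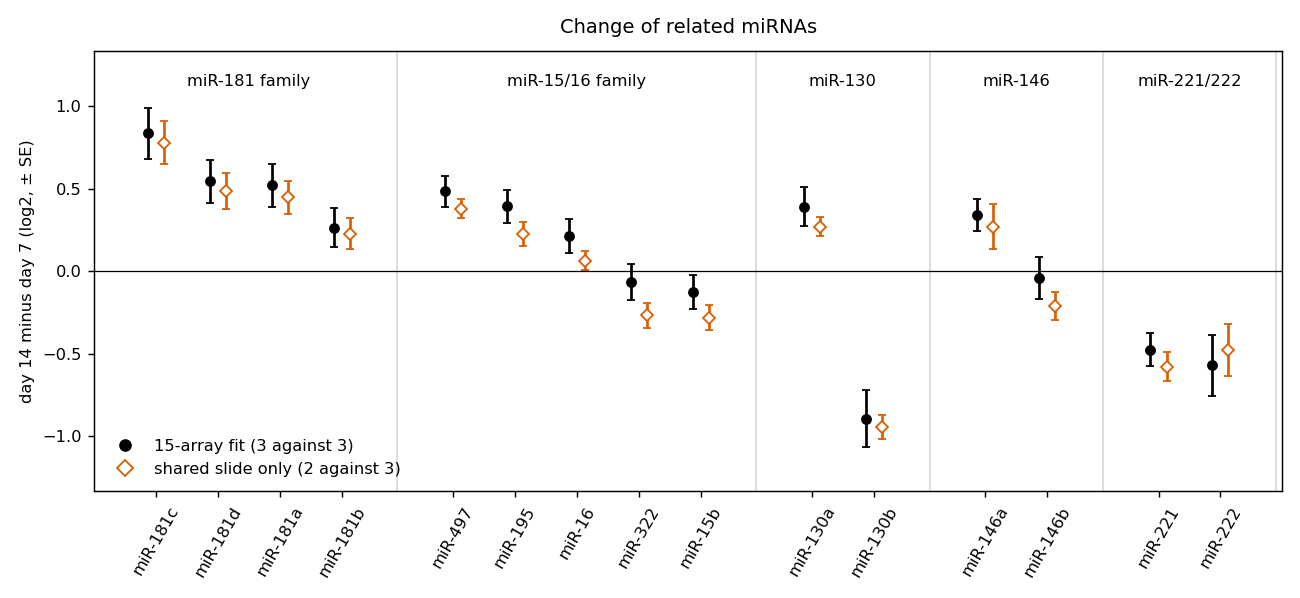
Log2 change (day 14 minus day 7, vertical axis, ± SE) of related miRNAs in the fit of all 15 arrays (black, 3 day 14 against 3 day 7 arrays) and within the shared slide (orange, 2 against 3). The miR-181 members all lie above 0, miR-497 and miR-195 lie above miR-322 and miR-15b, and miR-130a and miR-130b lie on opposite sides of 0.

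Single miRNAs of other families also rose. miR-455, encoded in an intron of the collagen gene Col27a1, was at -3.81, -3.75 and -3.92 on day 14, against -4.39, -4.29 and -4.28 on day 7. It rose by 0.49 ± 0.10 (limma adjusted p = 0.00669) and by 0.44 within the slide (adjusted p = 0.0169), a call kept without each array in turn. It was not called with normexp correction (0.14, adjusted p = 0.252), with the scaling set that leaves out day 14 replicate 3 (0.34, adjusted p = 0.0605), with the software's total signal (0.51, adjusted p = 0.598) or in the deposited table (0.70, adjusted p = 0.636). miR-205, an epithelial miRNA that represses the Zeb genes, rose by 0.37 ± 0.10 (adjusted p = 0.0283), and miR-542-5p of the X-linked miR-322 cluster by 0.37 ± 0.12 (adjusted p = 0.0464). For both, leaving out day 14 replicate 2 or 3 or any 1 day 7 array ended the call. Both calls also ended with normexp (0.10 and 0.16) and with slide as a fixed block (0.38 and 0.37). The scaling set that leaves out day 14 replicate 3 ended both as well (0.22 and 0.22). The miR-542-5p call was also lost in the deposited table (0.46) and with no detection filter. The other 6 tested members of the miR-322 cluster did not pass.

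miR-146a and miR-146b share a seed and restrain NF-kB signalling. miR-146a was at -0.23, -0.38 and -0.37 on day 14, against -0.50, -0.69 and -0.82 on day 7, and rose by 0.34 ± 0.10 (limma adjusted p = 0.0283). It did not pass within the slide (0.27, adjusted p = 0.214), nor without day 14 replicate 1 or 3 or day 7 replicate 2 or 3. The miR-146a call also ended with quantile normalisation (0.27), in the deposited table (0.30) and with the scaling set that leaves out day 14 replicate 3 (0.19). A fit of the 6 arrays alone and slide as a fixed block (0.36) ended it as well. miR-146b was at 0.98, 1.37 and 1.40 on day 14, against 1.26, 1.32 and 1.30 on day 7, so that its arrays overlapped (-0.04, adjusted p = 0.845). The difference between miR-146a and miR-146b within an array averaged -1.58 on day 14 and -1.96 on day 7 (exact permutation p = 0.2).

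The remaining rises were near the threshold. miR-30e rose by 0.38 ± 0.10 (limma adjusted p = 0.0231), the single call among 5 tested members of the miR-30 family, whose median was 0.25. miR-23b, at 2.96, 3.31 and 3.24 on day 14 and 2.88, 2.81 and 2.82 on day 7, rose by 0.34 ± 0.11 (adjusted p = 0.0489). The miR-23b change was 0.03 with quantile normalisation, 0.04 in the deposited table and 0.19 with the scaling set that leaves out day 14 replicate 3. miR-20b-5p rose by 0.47 ± 0.15 (adjusted p = 0.0472), with probes between 0.00 and 0.66. None of these 3 passed within the slide, and each lost its call without day 14 replicate 2 or 3 or any 1 day 7 array. miR-674-5p, near the floor and detected on 2 day 14 arrays, rose by 0.71 ± 0.21 (adjusted p = 0.034). Its 4 probes ranged from -0.23 to 1.07, its change was -0.05 in the deposited table, and it lost its call without day 14 replicate 2 or 3 or day 7 replicate 1 or 2.

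Markers of myelinating glia did not pass the test. miR-338, which lies in an intron of Aatk and promotes oligodendrocyte maturation, was at 3.09, 3.54 and 3.42 on day 14, against 2.98, 2.83 and 2.91 on day 7. All day 14 arrays were higher, yet the change of 0.45 ± 0.16 stayed short of the threshold (limma adjusted p = 0.0812) and was 0.32 within the slide (adjusted p = 0.105). It passed in 4 of 25 settings: without scaling, with array weights, with the 75th percentile over all miRNAs and without day 14 replicate 1 (0.58, adjusted p = 0.0295). miR-204 changed by 0.17 (adjusted p = 0.436), miR-138 by -0.07 (adjusted p = 0.818) and miR-211 by -0.38 (adjusted p = 0.414). The glial list had 0 rises and 0 falls of 5 tested, against 16.9% of all tested miRNAs called. Its median was 0.17, and 0.04 within the slide. It had 1 rise with array weights, without day 14 replicate 1 or with the 75th percentile over all miRNAs, and 3 without scaling. Its summed scaled signal was 10.3, 14.0 and 12.9 on day 14, against 9.82, 8.93 and 9.44 on day 7. That sum adds signals before the log2 step and is mostly miR-338, so it does not describe the list as a whole. Of the 5 changes, 3 were positive and 2 negative. miR-33, which represses cholesterol export, changed by 0.27 ± 0.19 (adjusted p = 0.36) and was the 1 rise called only within the slide (0.29, adjusted p = 0.0452).

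Muscle and blood miRNAs varied between arrays of a group and did not pass. miR-1 was at 0.03, -1.62 and 0.02 on day 14, against -3.66, -1.65 and -1.79 on day 7. Its mean change of 1.84 ± 0.94 was the largest measured, but 1 day 14 array stood level with the day 7 arrays (limma adjusted p = 0.195). miR-133a and miR-133b changed by 0.79 (adjusted p = 0.484) and 1.50 (adjusted p = 0.263). The part of muscle RNA in the other results was not tested. Day 14 replicate 2, the array with the least muscle signal of its group, had the highest miR-181c and miR-497 of the 3 but the lowest miR-195. Over all tested miRNAs, the level on day 14 replicate 1 minus that on replicate 2 had a median of -0.23. The red cell miR-451 was at 0.27, 0.41 and 0.20 on day 14, against 0.08, 0.64 and 1.35 on day 7 (-0.40, adjusted p = 0.669). miR-210, induced by hypoxia in many cells, changed by 0.08 (adjusted p = 0.74).

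Several families had no member past the test in the fit of all 15 arrays. The let-7 family, which promotes differentiation, had 0 rises and 0 falls of 8, against 14 and 23 of 219. Its median was 0.09, and -0.01 with quantile normalisation and -0.04 within the slide. It had 4 rises without scaling, 2 with the 75th percentile over all miRNAs, and 1 with array weights or without day 14 replicate 1. let-7c was at 3.20, 3.42 and 3.34 on day 14, against 3.12, 3.12 and 3.13 on day 7 (0.20 ± 0.10, limma adjusted p = 0.192), and let-7b changed by 0.27 (adjusted p = 0.0785). The collagen-repressing miR-29 family had 0 rises and 0 falls of 5 and a median of -0.08, which was 0.20 without scaling. miR-29b was -0.09 (adjusted p = 0.648) and passed within the slide at -0.22 (adjusted p = 0.0488). The smooth muscle miRNAs miR-143 and miR-145 changed by -0.15 (adjusted p = 0.369) and -0.17 (adjusted p = 0.354), miR-143 passing within the slide at -0.31 (adjusted p = 0.0436). miR-140, of cartilage and other matrix-forming cells, changed by 0.15 (adjusted p = 0.3).

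**Figure D4:**
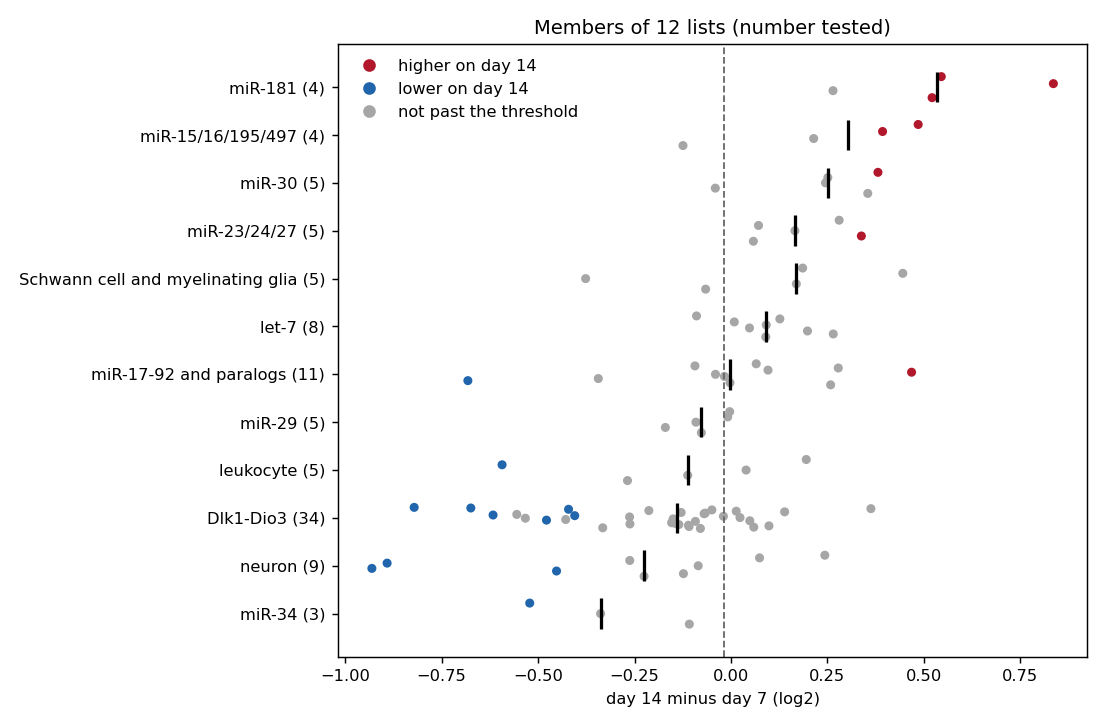
Log2 change (day 14 minus day 7, horizontal axis) of the tested members of 12 lists (rows, number tested in brackets), with a bar at each list's median and a dashed line at the median of all 219 tested miRNAs (-0.02). Red and blue points passed limma's test as higher or lower on day 14; the miR-181 row lies furthest to the right and the miR-34 row furthest to the left.

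The levels on all 5 days show where these changes sit in the course after injury, as means ± SD of 3 arrays with no test. miR-21 was at 1.98 ± 0.14 on day 0, 3.49 ± 0.13 on day 1, 5.01 ± 0.18 on day 4, 5.17 ± 0.06 on day 7 and 4.66 ± 0.17 on day 14. miR-221 was at -2.24 ± 0.11, -1.48 ± 0.04, -0.22 ± 0.04, -0.52 ± 0.02 and -0.99 ± 0.20 on the same days. Both were still nearer to day 7 than to uninjured nerve on day 14. miR-7a was at -4.60 ± 0.05, -3.96 ± 0.14, -3.40 ± 0.10, -3.59 ± 0.11 and -4.48 ± 0.09, and miR-223 at -0.61 ± 0.14, 1.18 ± 0.33, 0.53 ± 0.16, 0.19 ± 0.06 and -0.40 ± 0.26. These 2 stood close to their day 0 level on day 14. miR-137 was at -3.92 ± 0.30, -3.12 ± 0.30, -3.24 ± 0.10, -3.97 ± 0.11 and -4.90 ± 0.14, so that its day 7 level was already that of day 0 and its day 14 level lay below it.

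The miRNAs that rose followed other courses, given here for days 0, 4, 7 and 14 without day 1. miR-497 was at 0.46 ± 0.09 on day 0, -0.09 ± 0.07 on day 4, 0.03 ± 0.02 on day 7 and 0.51 ± 0.11 on day 14, and miR-130a at 1.52 ± 0.22, 1.10 ± 0.06, 1.15 ± 0.01 and 1.54 ± 0.13 on those days. miR-181c was at -2.86 ± 0.22, -3.48 ± 0.18, -3.62 ± 0.05 and -2.78 ± 0.29. On day 14 each of the 3 lay within 1 SD of its day 0 mean. miR-181d was at -3.37 ± 0.18, -3.60 ± 0.09, -3.43 ± 0.04 and -2.89 ± 0.24, with day 14 as the highest of these means. miR-455 was at -5.24 ± 0.18, -4.88 ± 0.06, -4.32 ± 0.06 and -3.83 ± 0.08, with each of these means above the one before. Days 0, 1 and 4 each lay on slides of their own, so day and slide cannot be told apart in these courses.

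**Figure D5:**
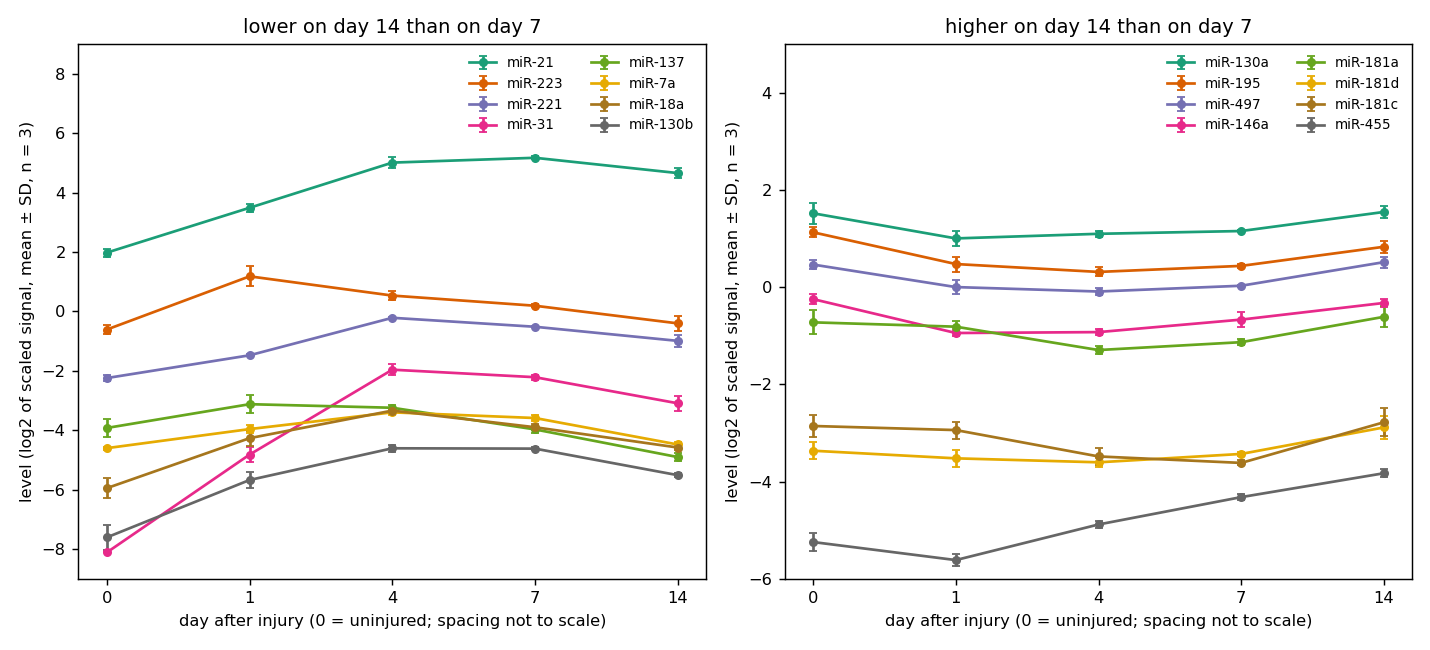
Level (log2 of scaled signal, vertical axis, mean ± SD of 3 arrays) of 16 miRNAs on days 0, 1, 4, 7 and 14 (horizontal axis, spacing not to scale), with miRNAs lower on day 14 than on day 7 on the left and miRNAs higher on day 14 on the right. On the left, miR-21 and miR-31 stay above day 0 on day 14 and miR-137 ends below it; on the right, miR-497, miR-130a and miR-181c end near their day 0 level and miR-455 ends above it.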

How the data were processed

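Arrays were Agilent rat miRNA arrays with 1 colour, each with 7000 spots and 938 probes for 350 miRNAs. The authors deposited scanner output whose spot intensity values were background-subtracted, per the file headers by version 10.7.3.1 of Agilent Feature Extraction, with detection flags from the same software. They also deposited a value table; it is on a log2 scale, as its values show, and appears quantile-normalised by the authors, with 349 of the 350 miRNAs. Its centring on day 14 replicate 3 differed (median 0.834 against 4.12 elsewhere).

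Spots marked as outliers were dropped, and intensities were averaged over spots within a probe and probes within a miRNA. Signals were then scaled by the array's 75th percentile over the 164 miRNAs detected on all 15 arrays (211 on 5 arrays within the slide). Values were floored and log2-transformed, and limma 3.58.1 in R 4.3.3 was fitted with a mean for each of the 5 groups. The residual and prior degrees of freedom were 10 and 3.58 (3 and 2.12 within the slide), tests were two-sided, and the Benjamini-Hochberg adjustment ran over all miRNAs tested. Exact permutation tests used scipy 1.17.1; Python 3.11.15, pandas 2.3.3 and matplotlib 3.10.9 were also used. Precision is limited by signal over background and by the number of arrays, 3 in each group.

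The miRNAs described were the calls with all arrays apart and the largest changes (up to 10 in each direction and fit), 30 fixed miRNAs whatever their result, and up to 3 per list with the smallest adjusted p. Members, lists and tests were chosen with earlier results of these data known, so list counts are descriptions. Array names are older ones that mark the minor arm with an asterisk, and the 26 names looked up were all matched to RefSeq arms. Replicate numbers do not pair samples: same-numbered day 14 and day 7 arrays had correlations of deviations of -0.37, -0.53 and -0.15.

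The files hold no mean spot signal, so the normexp alternative was run on median spot signals. The other alternatives changed the scaling, the detection filter, the floor, the signal column, the slide or replicate as a block, array weights and the arrays included.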

Additional observations from a re-analysis of the deposited data

How the results depend on the processing

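Against 37 calls, 66 were made with the 75th percentile over all miRNAs, 82 without scaling, 22 with normexp background correction (offset 50), 21 in the deposited table, 24 with the filter for detection on all 6 arrays, 69 with array weights and 20 with slide as a fixed block. The fit with replicate number as a block made 45 calls, 19 higher and 26 lower, and the numbers do not pair the samples. Leaving out 1 array in turn gave 11 to 49 calls. Subtracting each array's negative control mean, chosen after seeing the data, gave 29. Within the shared slide, 48 calls became 15 with quantile normalisation, 19 without scaling, 25 with total gene signal, 10 in the deposited table and 14 with no filter, and 3 to 66 when 1 array was left out. With 1 day 14 array left there, that lone array is assumed to vary like day 7.

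Of the 33 called miRNAs followed through all settings, 29 lost their call at least once (210 values in all) and miR-674-5p changed sign (-0.00298 with normexp, -0.0535 in the deposited table). Of the 27 not called, 16 gained a call at least once (42 values in all) and 16 changed sign at least once. Without scaling the signs turned for miR-126 (0.0905), miR-132 (0.0255), miR-138 (0.21), miR-142-3p (0.0112), miR-143 (0.13), miR-145 (0.11), miR-146b (0.24), miR-29a (0.20), miR-29b (0.19) and miR-29c (0.27). With the scaling set that leaves out day 14 replicate 3 they turned for miR-140 (-0.00031), miR-9 (-0.0740) and miR-210 (-0.0700). In the deposited table they turned for let-7c (-0.0496), miR-146b (0.00537) and miR-29a (0.0147), and with quantile normalisation for let-7c (-0.0221) and miR-29a (0.0145). Array weights turned miR-146b (0.0201), miR-210 (-0.0200) and miR-29c (0.0130), total gene signal miR-210 (-0.12) and miR-29c (0.0141), and normexp miR-210 (-0.0491). miR-212 turned with slide as a fixed block (-0.24) and within the slide (-0.34), where miR-9 was -0.0221. Leaving out 1 array in turn gave log2 changes of miR-138 -0.22 to 0.0601, miR-146b -0.18 to 0.0928, miR-206 -0.0142 to 0.97, miR-210 -0.11 to 0.18, miR-212 -0.31 to 0.47, miR-29a -0.17 to 0.0273 and miR-29c -0.10 to 0.0851. The cause of these changes was not tested.

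Day 14 replicate 3 limits what can be said of dim miRNAs, since 41 of those tested were missed on it alone.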

Other observations

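Within the shared slide, 17 falls passed that did not pass in the fit of all 15 arrays, and some belong to groups not described above. They are named after their values were seen, and the median change over all miRNAs tested in the slide was -0.10. miR-96, of the miR-183/96/182 cluster of sensory cells, was -0.46 within the slide (limma adjusted p = 0.0381) and -0.34 over 15 arrays (adjusted p = 0.17), and miR-182 and miR-183 passed in neither (-0.52 and -0.26 over 15 arrays). miR-378, encoded in an intron of the metabolic coactivator gene Ppargc1b, was -0.31 within the slide (adjusted p = 0.0452) and -0.18 over 15 arrays (adjusted p = 0.524). miR-365 and miR-193, which lie close together in mammalian genomes, were -0.33 and -0.30 within the slide (adjusted p = 0.0371 and 0.0488) and -0.20 and -0.21 over 15 arrays (adjusted p = 0.132 and 0.179). miR-350 was -0.48 within the slide (adjusted p = 0.0169) and -0.45 over 15 arrays (adjusted p = 0.0669).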
